A study of Mus musculus with 6 samples.

Results

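The NF-kB subunits and inhibitors are 10 genes of the 31053 listed in the deposited feature tables, taken by symbol. There are 5 subunits of the transcription factor (Nfkb1, Nfkb2, Rel, Rela and Relb) and 5 inhibitors or feedback genes (Nfkbia, Nfkbiz, Nfkbid, Nfkbie and Tnfaip3), and each symbol matched 1 entry. They were measured in single CD45-positive cells sorted alive from mouse brain after transient occlusion of the middle cerebral artery, a filament model of stroke. The 6 libraries are Lyz2-cre and fl/fl mice that were naive, at 1 h after reperfusion, or at 3 h after reperfusion, with 60 min of occlusion before it. Lyz2-cre stands for Cd300a-fl/fl Lyz2-cre mice, which carry loxP-flanked Cd300a and Cre recombinase at the lysozyme 2 locus, active in neutrophils, monocytes and macrophages. The abbreviation fl/fl stands for Cd300a-fl/fl mice, which have the loxP-flanked gene without Cre. All mice were of strain C57BL/6, and their age is not given in the sources used here. Naive is the word of the sample titles for mice that the series text places at 0 h. Each library is 1 pool of 3 brains, so there is 1 library per genotype and time, and sham-operated mice were not analysed here.

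NF-kB is a dimer of Rel family proteins that inhibitor proteins hold in the cytoplasm until an upstream kinase complex, IKK, marks the inhibitor for degradation. The freed dimer enters the nucleus and induces cytokine and chemokine genes, and with them its own inhibitors, so that the response ends itself. In microglia, the resident macrophages of the brain, this pathway is known for driving inflammatory genes after injury.

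After filtering, 47103 cells were used, 6721 to 9622 per library, from libraries of 35479437 to 48478866 UMIs (unique molecular identifiers, 1 per captured transcript). The libraries share 10 to 27 cell barcodes per pair. Classes were named from marker genes and are written with the ending -like. Microglia-like cells numbered 37180, monocyte-like cells 2364 and neutrophil-like cells 3928, and these 3 classes were tested. Summed microglia markers stood between 20110 and 38890 CPM (counts-per-million, a gene's share of what its class holds in that library) in microglia-like cells, against 437 to 2359 CPM in monocyte-like and 337 to 3123 CPM in neutrophil-like cells. The targeted gene Cd300a was at 16.3, 13.7 and 9.57 CPM in neutrophil-like cells of the naive, 1 h and 3 h Lyz2-cre libraries, against 162, 232 and 125 CPM in fl/fl. In microglia-like cells it was at 137, 171 and 162 CPM in Lyz2-cre, against 173, 212 and 206 CPM in fl/fl, so most of its RNA remained there. Erythroid markers in microglia-like cells summed to 334 CPM in Lyz2-cre at 1 h, against at most 1.89 CPM in the remaining 5 libraries.

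UMIs come from the polyadenylated end, 1 per transcript, so a longer gene does not gain counts, and levels are not divided by length. Changes are log2 fold changes with their standard error (SE) from edgeR's quasi-likelihood test on sums per library and class, fitted to all genes with time and genotype as additive terms. A change was called at a Benjamini-Hochberg adjusted p under 0.05. With 1 library per genotype and time, the spread behind each p-value is what the additive model leaves unexplained, and no pool was repeated. edgeR also draws each gene's spread towards that of the other genes, so a p-value does not rest on its gene alone. In summed counts, fewer expressing cells and less RNA per cell cannot be told apart, which is why UMIs per cell follow the sums for the main genes.

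In microglia-like cells at 1 h, Nfkbiz fell most, Tnfaip3 fell and Nfkbid rose, while Nfkbia did not pass the test. Among the subunits Nfkb2 and Rela rose by small amounts. In all, 3 of the 10 genes rose and 2 fell at 1 h. The background was 26.5% of 12846 genes tested, 13.9% higher and 12.6% lower, so changed genes were common. The median change of the 10 was -0.06 and that of all genes -0.01 on the log2 scale.

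Nfkbiz encodes IkB-zeta, an atypical inhibitor that sits in the nucleus and in mouse macrophages is needed for a subset of NF-kB targets. It is annotated on the minus strand of chromosome 16 (GRCm38, chr16:55811375-55838899). Its level in microglia-like cells was 349 CPM in Lyz2-cre and 509 CPM in fl/fl naive libraries, 61.6 and 80.5 CPM 1 h after reperfusion, and 186 and 236 CPM 3 h after it, Lyz2-cre before fl/fl at each time. The naive, 1 h and 3 h libraries did not overlap, and 1 h was lowest in both genotypes. The sums behind the 1 h levels were 1773 UMIs in Lyz2-cre and 2428 UMIs in fl/fl, against 10606 and 14123 UMIs in the naive libraries. The change at 1 h against naive was -2.48 ± 0.09 (SE) on the log2 scale (edgeR adjusted p = 4.4e-07). At 3 h its change was -0.93 ± 0.08 against naive (adjusted p = 4.6e-05) and 1.55 ± 0.09 against 1 h (adjusted p = 7.5e-06). The fall at 1 h was called in all 14 alternative settings, from -2.58 to -2.38. These settings reuse the same libraries, and this fall was known when the genes were chosen, so neither count nor p-value is independent support.

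**Figure D1:**
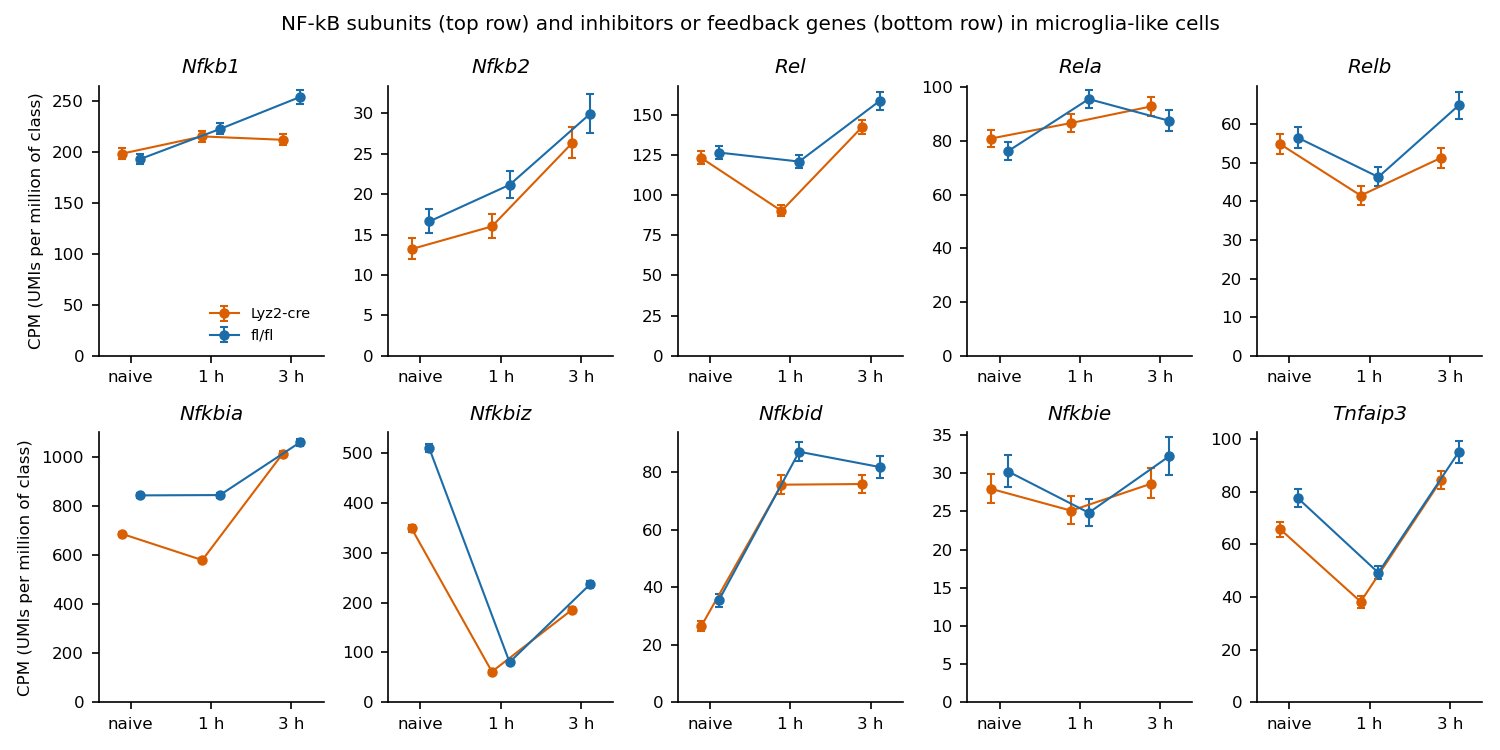
Level of each of the 10 genes in microglia-like cells (CPM, linear axis from 0) by time, in Lyz2-cre and fl/fl libraries. Each point is 1 library and its bar the exact 95% Poisson interval, which covers counting error only. Nfkbiz is lowest at 1 h in both genotypes, at 61.6 and 80.5 CPM, while Nfkbid is lowest in the naive libraries, at 26.4 and 35.4 CPM.

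The fall was also seen cell by cell. The share of microglia-like cells with at least 1 Nfkbiz UMI, with each cell thinned to 2000 UMIs so that depth does not set it, was 10.1% in Lyz2-cre and 12.9% in fl/fl cells at 1 h, against 41.7% and 53.5% in the naive libraries. At 3 h it was 22.6% in Lyz2-cre and 27.9% in fl/fl cells. Clopper-Pearson 95% intervals were 9.39% to 10.8% and 12.1% to 13.8% at 1 h, and they cover counting error only. Thinning kept 6836 of 7006 Lyz2-cre and 6646 of 6832 fl/fl cells at 1 h, and 5598 of 5717 and 5380 of 5527 in the naive libraries. Without thinning the 1 h shares were 17.4% and 23.1%, against 64.4% and 74.2% in the naive libraries. No class here is known to lack Nfkbiz entirely. In B cell-like cells, which have a lower level of it, the thinned share at 1 h was 5.93% in Lyz2-cre and 5.68% in fl/fl libraries. The median B cell-like cell held 3044 and 2872 UMIs there, and the median microglia-like cell 3899 and 4228 UMIs. Cells with 3 or more Nfkbiz UMIs made up 1.64% and 2.69% of microglia-like cells at 1 h, against 28.1% and 39.1% in the naive libraries. The mean number of Nfkbiz UMIs per cell was 0.253 and 0.355 at 1 h, against 1.86 and 2.56 in the naive libraries.

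**Figure D2:**
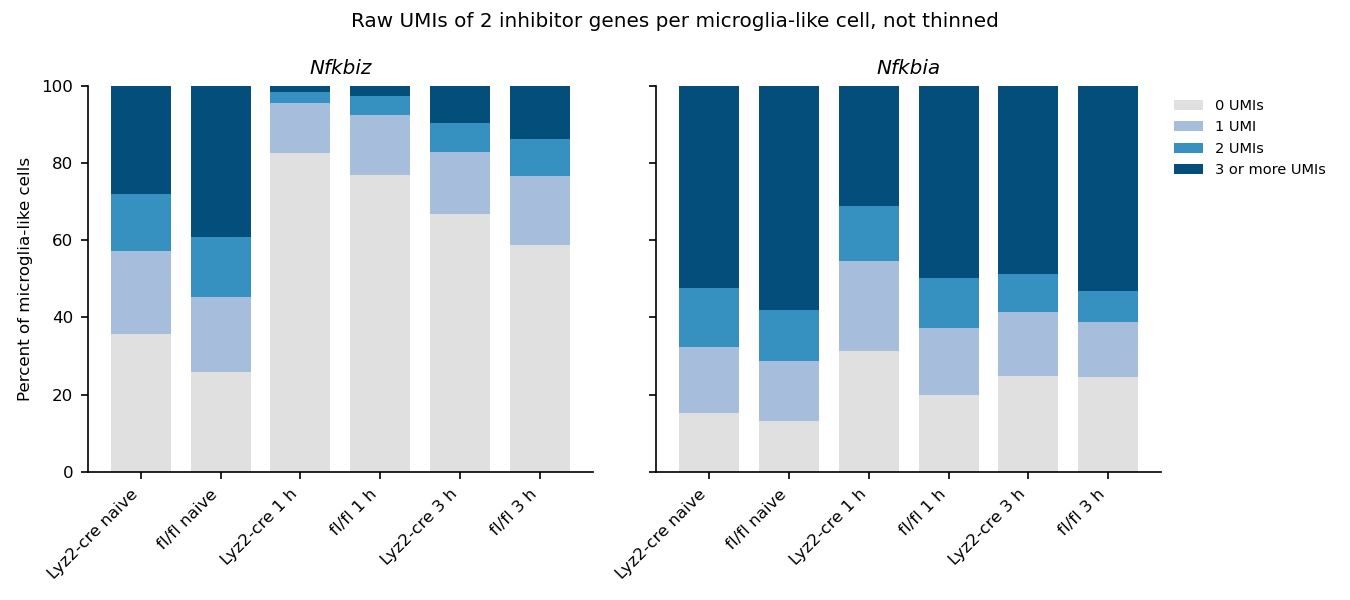
Percent of microglia-like cells with 0, 1, 2 or at least 3 raw UMIs of Nfkbiz (left) and Nfkbia (right) in each library, without thinning. For Nfkbiz the cells with 0 UMIs reach 82.6% in Lyz2-cre and 76.9% in fl/fl libraries at 1 h, against 35.6% and 25.8% in the naive ones, and for Nfkbia they stay between 13.2% and 31.4%.

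Nfkbia encodes IkB-alpha, the cytoplasmic inhibitor whose loss and resynthesis set the classical feedback loop. It lies on chromosome 12 (chr12:55489410-55492647, minus strand). It was the most abundant of the 10 genes in every microglia-like sum. Its level was 687 CPM in Lyz2-cre and 843 CPM in fl/fl naive libraries, 580 and 844 CPM 1 h after reperfusion, and 1013 and 1060 CPM 3 h after it. The 1 h and naive libraries overlapped, and the change was -0.01 ± 0.10 (edgeR adjusted p = 0.95). Each library's own change at 1 h, set against its naive counterpart with no test, was -0.24 in Lyz2-cre and 0.002 in fl/fl. At 3 h Nfkbia was higher than in naive cells by 0.53 ± 0.10 (adjusted p = 0.0027). That call was lost when the fl/fl naive library was left out or when time was fitted without genotype.

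The contrast between both inhibitors can be read within a library, where depth and scaling cancel. Per 100 UMIs of Nfkbia, microglia-like cells held 50.8 UMIs of Nfkbiz in Lyz2-cre and 60.4 in fl/fl naive libraries, 10.6 and 9.53 1 h after reperfusion, and 18.4 and 22.3 3 h after it. The 1 h libraries stood below the 3 h libraries, and these below the naive ones. Nfkbiz made up 30.2% and 34.1% of the summed UMIs of the 5 inhibitor and feedback genes in the naive libraries, 7.89% and 7.41% 1 h after reperfusion, and 13.4% and 15.7% 3 h after it.

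Nfkbid encodes IkB-NS, the other nuclear inhibitor of the set, and lies on chromosome 7 (chr7:30421732-30428746, plus strand). Its level in microglia-like cells was 26.4 CPM in Lyz2-cre and 35.4 CPM in fl/fl naive libraries, 75.6 and 87.0 CPM 1 h after reperfusion, and 75.8 and 81.7 CPM 3 h after it. Both later times lay above both naive libraries and overlapped with each other. It rose by 1.51 ± 0.09 at 1 h (edgeR adjusted p = 1.6e-05) and by 1.44 ± 0.09 at 3 h (adjusted p = 6.6e-06) against naive, and both calls were kept in all 14 alternatives. Per 100 UMIs of Nfkbiz there were 7.58 UMIs of Nfkbid in Lyz2-cre and 6.96 in fl/fl naive libraries, 123 and 108 1 h after reperfusion, and 40.8 and 34.6 3 h after it. In the class sums at 1 h the order of both nuclear inhibitors was thus inverted, with Nfkbid the more abundant in both genotypes. This did not hold in every cluster, as given below.

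Tnfaip3 encodes A20, a ubiquitin-editing enzyme that shuts off signalling upstream of IKK, and lies on chromosome 10 (chr10:19000910-19015657, minus strand). It was at 65.7 CPM in Lyz2-cre and 77.5 CPM in fl/fl naive libraries, 38.2 and 49.2 CPM 1 h after reperfusion, and 84.3 and 95.01 CPM 3 h after it. The 3 times did not overlap. It fell by 0.61 ± 0.08 on the log2 scale at 1 h (edgeR adjusted p = 0.00079), and at 3 h it was higher than naive by 0.41 ± 0.08 (adjusted p = 0.0022) and higher than at 1 h by 1.02 ± 0.08 (adjusted p = 3.5e-05). The call at 3 h against naive was lost when time was fitted without genotype (the adjusted p over the alternatives ran from 0.00081 to 0.086). Nfkbie, which encodes the cytoplasmic inhibitor IkB-epsilon, ranged from 24.8 to 32.2 CPM over the 6 libraries and was called at no time. Its largest change was 0.26 ± 0.10 at 3 h against 1 h (adjusted p = 0.057).

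Among the subunits, Nfkb1 (p105, cut to the DNA-binding p50) had the highest level, from 193 to 254 CPM over the 6 libraries. It rose at 3 h against naive by 0.33 ± 0.10 (edgeR adjusted p = 0.020). That call was lost when either naive library or the fl/fl 3 h library was left out. Nfkb2, which encodes p100, the precursor of p52 in the alternative pathway, had the lowest level of the 10. It stood at 13.2 CPM in Lyz2-cre and 16.6 CPM in fl/fl naive libraries, 16.01 and 21.2 CPM 1 h after reperfusion, and 26.3 and 29.9 CPM 3 h after it. The 3 h libraries lay above the other 4, and the naive and 1 h libraries overlapped. Nfkb2 rose by 0.42 ± 0.10 at 1 h (adjusted p = 0.013) and by 1.00 ± 0.10 at 3 h (adjusted p = 6.4e-05), and the 3 h call was kept in all 14 alternatives. The 1 h call was lost without any 1 of the naive or 1 h libraries, without scaling factors, or when time was fitted without genotype. Nfkb2 overlaps the gene Psd on the opposite strand. Whether the authors' counting separated strands is not given in the sources used here.

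Rel, which encodes c-Rel, a subunit with a transactivation domain abundant in leukocytes, was at 123 CPM in Lyz2-cre and 126 CPM in fl/fl naive libraries, 90.1 and 121 CPM 1 h after reperfusion, and 142 and 158 CPM 3 h after it. It was called at 3 h, by 0.34 ± 0.09 against naive (edgeR adjusted p = 0.012) and by 0.50 ± 0.09 against 1 h (adjusted p = 0.0020). The call against naive was lost without the fl/fl naive library or when time was fitted without genotype, and that against 1 h without the Lyz2-cre 1 h library. Rela, which encodes p65, the transactivating partner in the classical dimer, ranged between 76.3 and 95.6 CPM. It rose by 0.32 ± 0.08 at 1 h (adjusted p = 0.018) and by 0.28 ± 0.08 at 3 h (adjusted p = 0.017) against naive, and the 1 h call was lost without any 1 of the naive or 1 h libraries. The 3 h call of Rela was lost without either naive library or the Lyz2-cre 3 h library, and both calls were lost without scaling factors. Relb, the subunit of the alternative pathway, ranged from 41.5 to 64.8 CPM and was called once, at 3 h against 1 h, by 0.37 ± 0.10 (adjusted p = 0.012). That call was lost without either 1 h library, without the fl/fl 3 h library, or when time was fitted without genotype.

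Counted together, 7 of the 10 genes were higher at 3 h than in naive microglia-like cells and 1, Nfkbiz, was lower, over a background of 47.7% of genes called (24.4% higher and 23.3% lower). The median change of the 10 was 0.34, against -0.02 over all genes. Against 1 h, 6 were higher at 3 h and none was lower by edgeR, over a background of 47.4% (25.3% higher, 22.1% lower). Of the 4 not called, 1 more had an unadjusted p under 0.05, as did 7033 of all 12846 genes, called or not, and DESeq2 called none lower either.

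RefSeq promoter windows (GRCm38.p6, 250 bases before to 50 after an annotated start) were given for 7 of the 10 genes. None was given for Nfkb1, Relb and Nfkbiz. The 10-base NF-kB consensus was searched on both strands, overlapping matches included. It was found in 8 of the 12 windows and in 6 of the 7 genes, Rela being the gene without a match. Of all 32851 windows given, 4.51% hold it, and 5.14% of all genes have it in at least 1 window. A match is a run of letters and does not show binding. The stretches before the start that hold no annotated exon are shown for 3 feedback genes that took different courses at 1 h in microglia-like cells, namely Nfkbid (1 of its 3 windows, higher), Nfkbia (not called) and Tnfaip3 (lower, 1 of its 2 windows). Capitals mark the matches, and each stretch is written 5′ to 3′ along the gene.
Nfkbid, chr7:30422156-30422405, plus strand: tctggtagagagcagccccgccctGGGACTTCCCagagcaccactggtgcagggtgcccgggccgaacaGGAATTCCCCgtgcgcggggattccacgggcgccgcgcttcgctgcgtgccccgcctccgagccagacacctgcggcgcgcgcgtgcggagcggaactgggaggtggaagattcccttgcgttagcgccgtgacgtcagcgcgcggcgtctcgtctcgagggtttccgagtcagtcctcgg
Nfkbia, chr12:55492648-55492897, minus strand: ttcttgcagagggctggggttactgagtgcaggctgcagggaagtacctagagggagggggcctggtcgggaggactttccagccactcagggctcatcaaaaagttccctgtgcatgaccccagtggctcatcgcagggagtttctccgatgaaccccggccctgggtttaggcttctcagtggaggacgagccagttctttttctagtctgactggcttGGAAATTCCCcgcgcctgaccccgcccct
Tnfaip3, chr10:19015411-19015547, minus strand: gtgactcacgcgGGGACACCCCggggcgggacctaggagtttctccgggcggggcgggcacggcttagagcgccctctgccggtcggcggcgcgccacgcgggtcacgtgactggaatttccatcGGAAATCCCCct
The matches in Nfkbid begin 226 and 181 bases before the RefSeq start, that in Nfkbia 29 bases before it, and those in Tnfaip3 125 and 12 bases before it. Only stretches with a match were chosen for showing, so that each of the 3 holds one is no result. The Nfkbid and Tnfaip3 stretches lie inside the GENCODE spans of their genes.

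Microglia-like cells of different times fell into different clusters, and Nfkbiz, Nfkbid and Tnfaip3 were among the genes used to cluster, so their levels per cluster are a description. Naive cells were mainly in clusters 3 and 5. Cluster 5, which had high Fosb (1848 CPM in Lyz2-cre and 2196 CPM in fl/fl naive cells), held Nfkbiz at 309 and 453 CPM, and cluster 3 held it at 393 and 565 CPM. At 1 h most cells were in clusters 0 and 7. Cluster 0 had Nfkbia at 289 CPM in Lyz2-cre and 279 CPM in fl/fl cells and Nfkbiz at 21.0 and 17.3 CPM. Cluster 7 had Nfkbia at 971 and 1233 CPM, above the 765 and 928 CPM of naive cluster 3, and Nfkbiz at 113 and 114 CPM. Its Nfkbid stood at 159 and 132 CPM, the level of cluster 0 being 19.8 and 9.08 CPM. Nfkbid was thus above Nfkbiz in cluster 7 but not in cluster 0. The inverted order of the class sums did not hold in every cluster. Cluster 0 held 55.6% of the Lyz2-cre and 35.5% of the fl/fl microglia-like cells at 1 h, and cluster 7 held 37.9% and 48.6%.

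At 3 h the chemokine-rich cluster 8, with Rcan1, Gdf15 and Ccl3 among its leading genes, had the highest Nfkbia and Nfkb2 of the main 3 h clusters, at 1509 and 51.1 CPM in Lyz2-cre and 1493 and 52.2 CPM in fl/fl cells. Its Nfkbiz was 308 and 331 CPM. Cluster 9, led by the heat shock genes Hspa1a, Hspb1 and Hspa1b, had the highest Nfkbid of these clusters, at 130 and 172 CPM, with Nfkbiz at 147 and 193 CPM. Cluster 17, led by Slc1a3, had Nfkbia at 1143 and 1226 CPM but Nfkbid at 16.6 and 24.8 CPM. Cluster 6 had Nfkbia at 238 and 168 CPM and Nfkbiz at 34.1 and 21.7 CPM.

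**Figure D3:**
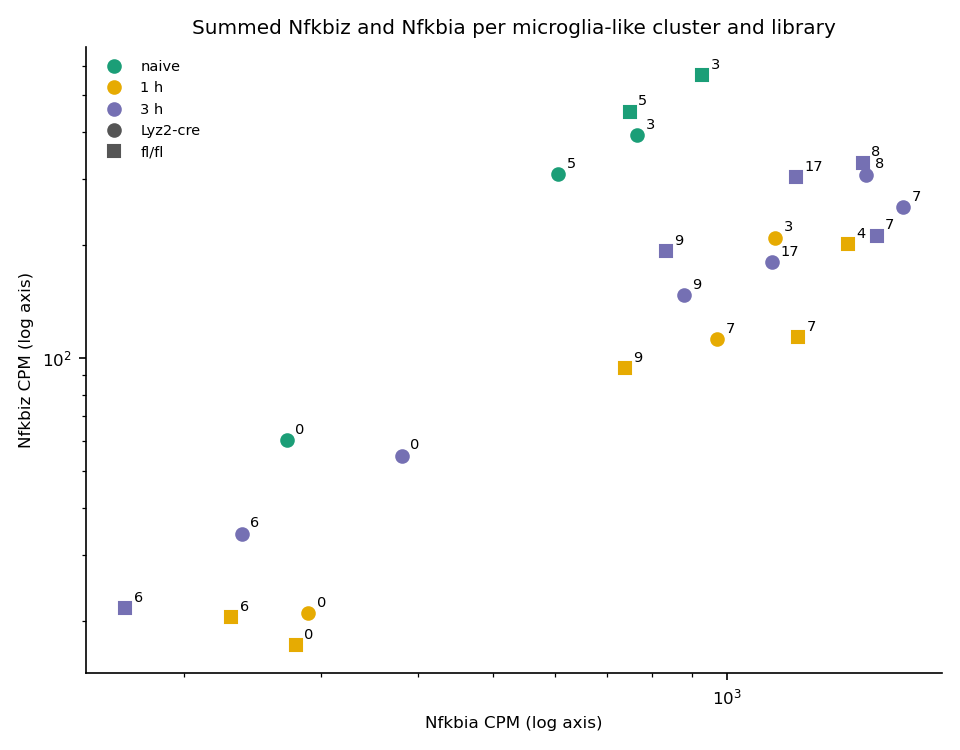
Nfkbiz against Nfkbia in sums per microglia-like cluster and library (CPM, both axes logarithmic), for sums of at least 100 cells. The number beside a point is its cluster, its shape the genotype and its colour the time. At 1 h cluster 7 has more Nfkbia than the naive clusters 3 and 5, and Nfkbiz at 113 and 114 CPM, against 309 to 565 CPM in clusters 3 and 5 of naive cells.

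Genes of the immediate early response, which are also induced when tissue is dissociated, moved in the same direction as Nfkbiz. Of 21 in the list, 17 fell and 1 (Nr4a1) rose in microglia-like cells at 1 h against naive, where 12.6% of all genes fell and 13.9% rose. Their median change was -1.35, against -0.01 over all genes. Summed, they were at 46620 CPM in Lyz2-cre and 55130 CPM in fl/fl naive libraries, 18970 and 20970 CPM 1 h after reperfusion, and 26920 and 26980 CPM 3 h after it. The sums were lowest at 1 h, as Nfkbiz was, and at 3 h they lay close together in both genotypes. The part of this list in the fall of Nfkbiz was not tested. Fosb, an AP-1 subunit, fell by 2.85 ± 0.12 (edgeR adjusted p = 1.6e-06) and Egr1, a growth factor-induced regulator, by 1.92 ± 0.10 (adjusted p = 7.1e-06). Over the 6 microglia-like sums, the genes whose log2 level was most like that of Nfkbiz, of 8119 compared, were Taf7, Otud1, Hnrnpu, Zfp36 and Ube2d3, with Pearson r from 0.994 to 0.998. These r are descriptions over 6 libraries of 3 times. Zfp36, which encodes the RNA-destabilising protein tristetraprolin, was at 2253 and 2814 CPM in the naive libraries, 784 and 1031 CPM 1 h after reperfusion, and 1715 and 1850 CPM 3 h after it, Lyz2-cre before fl/fl. For Nfkbia the most similar genes were Irf2bpl, Plekhf2, Ppp1r3d, Il6 and Gpr146, with r from 0.970 to 0.985.

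Of 26 other inhibitors and feedback genes of the pathway, none rose and 4 fell at 1 h against naive, and 12 rose and 4 fell at 3 h. Beside these stand 26.5% of all genes called at 1 h (13.9% higher, 12.6% lower) and 47.7% at 3 h (24.4% higher, 23.3% lower), which are also the background for the lists that follow. At 1 h the genes that fell included Zfp36 by 1.38 ± 0.09 (edgeR adjusted p = 2.8e-05), the phosphatase gene Dusp1 by 1.35 ± 0.10 (adjusted p = 3.7e-05), and Nlrc5, at 0.590 CPM in Lyz2-cre and 1.46 CPM in fl/fl libraries against 1.84 and 4.07 CPM in naive ones. At 3 h Bcl3, another nuclear IkB protein, was at 26.03 CPM in Lyz2-cre and 28.5 CPM in fl/fl, against 1.84 and 2.42 CPM in the naive libraries (log2 fold change 3.8 ± 0.45, adjusted p = 0.0055). Of 28 genes of IKK and its adaptors, 1 rose and 3 fell at 1 h, and 9 rose and 5 fell at 3 h, a share near the 47.7% of all genes at 3 h and below the 26.5% at 1 h. Map3k8, a kinase of this pathway, rose at 3 h by 2.05 ± 0.28 (adjusted p = 0.0086). Its level was 137 CPM in Lyz2-cre and 154 CPM in fl/fl libraries, against 34.5 and 39.9 CPM in naive ones. The call of Map3k8 was lost without the gene filter or without any 1 of the naive or 3 h libraries. That of Bcl3 was lost without either naive library. The fall of Nlrc5 lost its call without the fl/fl 1 h library or when time was fitted without genotype.

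Of 15 upstream receptor genes tested, 7 rose and 1 fell at 1 h, and 8 rose and none fell at 3 h, where 47.7% of all genes were called. Cd14, the co-receptor for endotoxin, was at 435 CPM in Lyz2-cre and 505 CPM in fl/fl naive libraries, 804 and 1139 CPM 1 h after reperfusion, and 3127 and 2476 CPM 3 h after it. Its change was 1.14 ± 0.17 at 1 h (edgeR adjusted p = 0.0062) and 2.66 ± 0.18 at 3 h (adjusted p = 0.00012) against naive. The 1 h call was lost without the Lyz2-cre naive library. Of 30 NF-kB target genes tested, 11 rose and 3 fell at 1 h and 25 rose and none fell at 3 h, with a median change of 0.57 and 1.56. Of all genes, 13.9% rose at 1 h and 24.4% at 3 h. Cxcl2, a neutrophil-attracting chemokine, rose by 3.69 ± 0.18 at 1 h (adjusted p = 3.4e-06) and by 8.29 ± 0.14 at 3 h (adjusted p = 1.2e-09). Its level at 1 h was 5.38 CPM in Lyz2-cre and 7.16 CPM in fl/fl libraries, against 0.559 and 0.469 CPM in naive ones. Neutrophil-like cells held 777 and 1917 CPM of Cxcl2 at 1 h, and neutrophil markers summed to 484 and 241 CPM in microglia-like cells of that time, against 308 and 242 CPM in the naive libraries. The part of neutrophil RNA in the change was not tested. Of 5 genes known to need Nfkbiz in mouse macrophages, 3 could be tested. None was called at 1 h, and Il6 and Il12b rose at 3 h. The call of Il12b was lost without the gene filter or without either naive library. Il6, a cytokine, was at 24.6 CPM in Lyz2-cre and 25.8 CPM in fl/fl libraries at 3 h, against 10.9 and 16.6 CPM in naive ones (log2 fold change 0.99 ± 0.13, adjusted p = 0.00038). Of 12 heat shock genes, 5 rose and 1 fell at 1 h and 11 rose at 3 h with none falling.

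Monocytes are blood-borne cells that can enter the injured brain. None of the 10 genes was called in monocyte-like cells at 1 h by edgeR, over a background of 0.233% of 9888 genes (0.121% higher, 0.111% lower), while 6 had an unadjusted p under 0.05, as did 1301 of the 9888 genes, and DESeq2 called none either. Nfkbiz was at 199 CPM in Lyz2-cre and 180 CPM in fl/fl naive libraries, 81.7 and 132 CPM 1 h after reperfusion, and 91.3 and 109 CPM 3 h after it. Both later times lay below both naive libraries, and the change was -0.84 ± 0.21 at 1 h (edgeR adjusted p = 0.19) and -0.73 ± 0.20 at 3 h (adjusted p = 0.035). Nfkbia was at 399 and 377 CPM in the naive libraries, 450 and 1028 CPM 1 h after reperfusion, and 943 and 983 CPM 3 h after it. All 4 later libraries lay above the naive ones, the Lyz2-cre 1 h library by the least. Its change was 0.88 ± 0.27 at 1 h (adjusted p = 0.24) and 1.51 ± 0.27 at 3 h (adjusted p = 0.0054). Neutrophil markers in monocyte-like cells summed to 611 CPM in Lyz2-cre and 182 CPM in fl/fl naive libraries, 1886 and 147 CPM 1 h after reperfusion, and 1024 and 3288 CPM 3 h after it. Microglia markers summed to 1651 and 2359 CPM, 1719 and 1551 CPM, and 437 and 440 CPM in the same libraries. The part of either in the changes of this class was not tested.

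At 3 h against naive 1 of the 10 genes, Nfkbia, rose and 3 fell in monocyte-like cells, over a background of 20% of genes (9.39% higher, 10.6% lower). Rel fell by 0.91 ± 0.18 (edgeR adjusted p = 0.0084) and Relb by 0.92 ± 0.27 (adjusted p = 0.042), and the third was Nfkbiz. Rel was at 77.5 CPM in Lyz2-cre and 71.8 CPM in fl/fl at 3 h, against 172 and 152 CPM in the naive libraries. The makeup of the class shifted in the same comparison. Cluster 13, led by Ace, Ear2 and Treml4, held 16.3% of Lyz2-cre and 15.5% of fl/fl monocyte-like cells at 3 h, against 61.3% and 50% in naive libraries. Cluster 16, led by Fn1, F13a1 and Saa3, held 75.4% and 69.0%, against 30.8% and 42.2%. At 1 h cluster 13 held 39.5% of Lyz2-cre and 50.8% of fl/fl cells, and cluster 16 held 58.0% and 43.7%. Within cluster 16 alone 2 genes rose at 3 h and none fell, and within cluster 13 alone 1 rose and 1 fell. The falls of Relb and Nfkbiz were called in neither cluster alone and not by DESeq2. The 3 falls were also lost without the Lyz2-cre naive library or either 3 h library, and that of Rel within cluster 16 alone. Nfkbia kept its call at 3 h in both clusters, and lost it when the Lyz2-cre 3 h library was left out. Between 3 h and 1 h none of the 10 was called by edgeR (background 18.6%, 9.04% higher and 9.57% lower; 2 of the 10 and 3341 of 9888 genes had an unadjusted p under 0.05).

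Neutrophil-like cells had no gene of the 10 called at 1 h by edgeR, over a background of 0.37% of 8377 genes, with 1 of them and 865 of all genes at an unadjusted p under 0.05, and none by DESeq2. At 3 h 9 of the 10 rose against naive and none fell (background 29.3%, 17.7% higher and 11.6% lower), Tnfaip3 being the exception. Against 1 h 8 rose and none fell (background 34.9%, 18.8% higher and 16.1% lower). Nfkbia was at 430 CPM in Lyz2-cre and 517 CPM in fl/fl naive libraries, 274 and 950 CPM 1 h after reperfusion, and 2241 and 1711 CPM 3 h after it. The 3 h libraries lay above the others, and the 1 h libraries stood on either side of the naive ones. The change at 3 h was 2.46 ± 0.42 against naive (edgeR adjusted p = 0.0024), the largest of the 10 in this class. Nfkbiz was at 174 and 249 CPM in naive, 100.2 and 255 CPM 1 h after reperfusion, and 379 and 402 CPM 3 h after it, and rose by 1.29 ± 0.28 at 3 h against naive (adjusted p = 0.0054). Nfkb2 rose by 2.20 ± 0.39 (adjusted p = 0.0016). The rises of Nfkbia and Nfkb2 against naive were called in all 14 alternatives. That of Nfkbiz was lost without scaling factors, without the fl/fl naive library, or without cluster 11, which is described below. Its estimate over the alternatives ran from 0.54 to 1.52.

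Neutrophil-like cells of naive and 1 h libraries lay in clusters 11 and 12 and those of 3 h in cluster 18, with 94.0% of the Lyz2-cre and 93.6% of the fl/fl cells of that time. Cluster 11 was led by granule genes such as Ngp, Camp and Ltf. A change within neutrophils and a change in which neutrophils were present cannot be told apart here. Without cluster 11, 5 of the 10 genes rose at 3 h against naive, and without scaling factors 3 did. Without the fl/fl naive library 3 rose, and without the Lyz2-cre 3 h library 5. Of the 8 calls against 1 h, 2 were left without the Lyz2-cre 1 h library, 5 without the Lyz2-cre 3 h library or cluster 11, and 3 without scaling factors. In the naive fl/fl library, neutrophil-like cells also held 3123 CPM of microglia markers, against 657 CPM in Lyz2-cre. At 1 h these were at 1634 CPM in Lyz2-cre and 2970 CPM in fl/fl, and at 3 h at 603 and 337 CPM. Myeloid progenitor markers summed to 2211 CPM in the Lyz2-cre 1 h library, against at most 263 CPM in the other 5. The part of this RNA in the values was not tested.

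**Figure D4:**
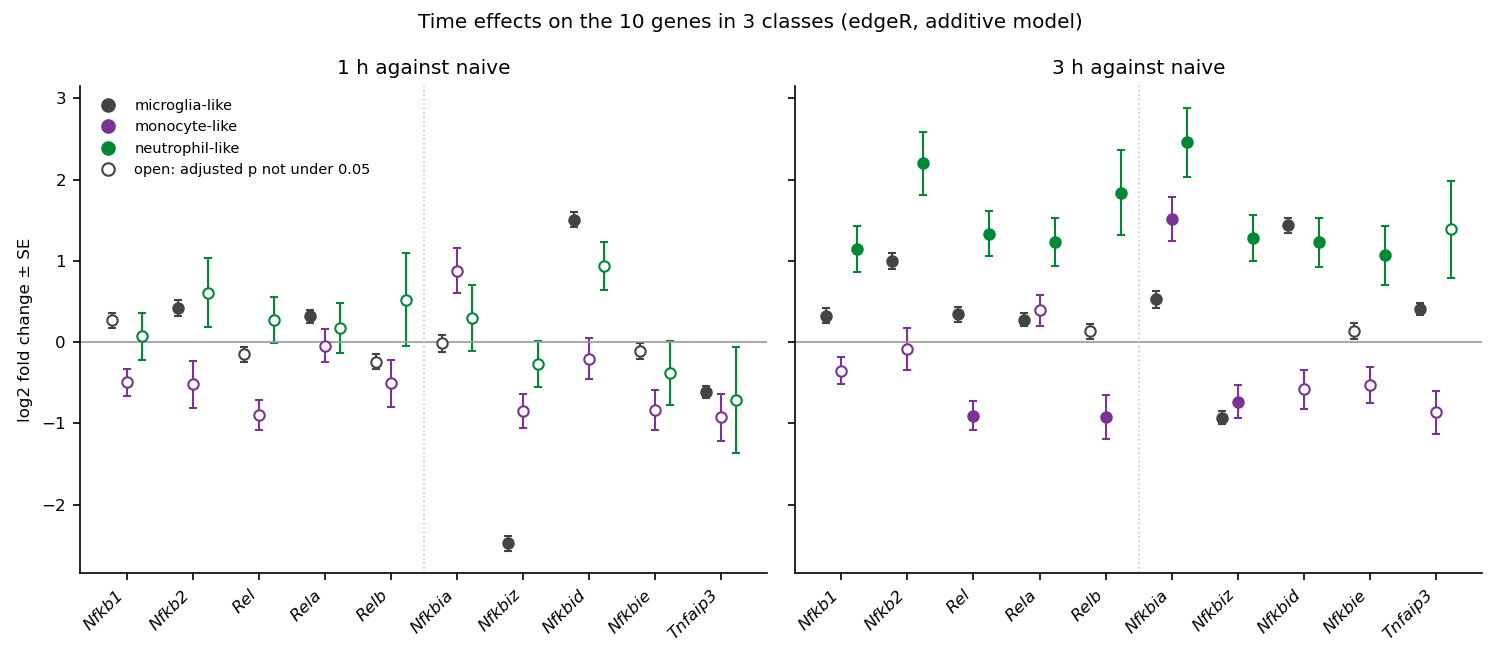
Log2 fold change of the 10 genes at 1 h (left) and 3 h (right) against naive in 3 classes, from edgeR, with bars of 1 SE. Filled points passed an adjusted p of 0.05, and the dotted line parts subunits from inhibitors and feedback genes. At 1 h Nfkbiz in microglia-like cells is the lowest point, at -2.48, and at 3 h the neutrophil-like points lie above 1 for all 10 genes.

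Whether a time effect differed between classes was tested directly, in a model with each library as a block. At 1 h the change of Nfkbiz was lower in microglia-like than in monocyte-like cells by -1.67 ± 0.22 on the log2 scale (edgeR adjusted p = 9.9e-05) and lower than in neutrophil-like cells by -2.19 ± 0.31 (adjusted p = 1.1e-06). Both differences were called in all 10 alternatives. These reuse the same libraries, and the fall of Nfkbiz was known when the genes were chosen. Neither this count nor these p-values are independent support. Alternatives for class differences covered scaling, the gene filter, DESeq2 and leaving out each library, not cell filters or clusters. Nfkbid differed in the other direction from monocyte-like cells, by 1.68 ± 0.27 (adjusted p = 0.00083), a call lost without the Lyz2-cre naive library. Nfkbia was lower in microglia-like than in monocyte-like cells by -0.91 ± 0.21 (adjusted p = 0.023), which was lost without either naive library or without the fl/fl 1 h library. So 1 gene was higher and 2 lower than in monocyte-like cells, with a background of 1.18% of genes (0.748% higher, 0.432% lower). Against neutrophil-like cells 1 was lower (background 0.655%, 0.203% higher and 0.452% lower). Nfkbiz, chosen with its fall known, is in both counts. Tnfaip3, which fell in microglia-like cells at 1 h, differed from monocyte-like cells by 0.25 ± 0.28 (adjusted p = 0.85).

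At 3 h the time effect was higher in microglia-like than in monocyte-like cells for 6 genes and lower for Nfkbia (background 14.1%, 8.01% higher and 6.09% lower). Nfkbid differed by 1.99 ± 0.26 (edgeR adjusted p = 9.5e-06), and Tnfaip3 by 1.21 ± 0.25 (adjusted p = 0.0017), the second call being lost without the Lyz2-cre naive library. Nfkb1, Nfkb2, Rel and Relb differed by 0.59 to 1.18. Of these, Rel was called in all 10 alternatives, and the others were lost without the Lyz2-cre naive library. Nfkbia differed by -1.08 ± 0.20 (adjusted p = 0.00078), a call lost without the fl/fl naive library. Against neutrophil-like cells 7 genes were lower in their time effect at 3 h and none was higher (background 15.3%, 5.87% higher and 9.39% lower), with Nfkbiz at -2.33 ± 0.31 (adjusted p = 4.1e-09) and Nfkbia at -2.03 ± 0.34 (adjusted p = 3.6e-06). Those of Nfkbiz and Nfkbia were called in all 10 alternatives. The other 5 were lost without scaling factors, or without the Lyz2-cre naive library.

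The other classes had too few cells for a test in every library or were outside the tested set, so their levels are given as values. Border-associated macrophage-like cells, 10 to 33 per library, had the highest naive Nfkbiz of all classes, at 760 CPM in Lyz2-cre and 999.8 CPM in fl/fl libraries. At 1 h they held 66.2 CPM in Lyz2-cre, from 2 UMIs in 10 cells, and 256 CPM in fl/fl, from 12 UMIs in 12 cells, and at 3 h 91.6 and 203 CPM. This class too changed cluster, with cluster 1.6 holding 29 of 33 Lyz2-cre and 20 of 21 fl/fl naive cells, and cluster 1.7 holding 18 of 22 and 10 of 13 cells at 3 h. Conventional dendritic cell-like cells held Nfkbiz at 226 and 174 CPM in naive libraries, 69.1 and 94.4 CPM 1 h after reperfusion, and 106 and 122 CPM 3 h after it, so both later times lay below naive in both genotypes. The makeup of this class changed as well. Cluster 1.8, led by Ccl17, held 4 of 49 Lyz2-cre and 4 of 43 fl/fl cells in naive libraries. At 1 h it held 12 of 35 and 13 of 34, and at 3 h 38 of 79 and 31 of 63. The part of this shift in the dendritic values was not tested. T cell-like cells held Nfkbiz at 90.8 and 88.1 CPM, 67.1 and 61.1 CPM, and 134 and 109 CPM at the same times. T cell-like cells came from different clusters by time. Cluster 10.10 held 4 of 157 Lyz2-cre and 13 of 408 fl/fl cells in naive libraries, 22 of 63 and 90 of 139 at 1 h, and 37 of 65 and 21 of 93 at 3 h. In B cell-like cells it ranged from 27.6 to 86.3 CPM and in NK cell-like cells from 15.6 to 73.6 CPM. Nfkbid in conventional dendritic cell-like cells was at 60.5 and 62.6 CPM in naive, 48.1 and 39.6 CPM 1 h after reperfusion, and 30.6 and 36.5 CPM 3 h after it. Tnfaip3 ranged from 67.1 to 203 CPM in T cell-like and from 96.7 to 256 CPM in NK cell-like cells, against 38.2 to 95.01 CPM in microglia-like cells.

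**Figure D5:**
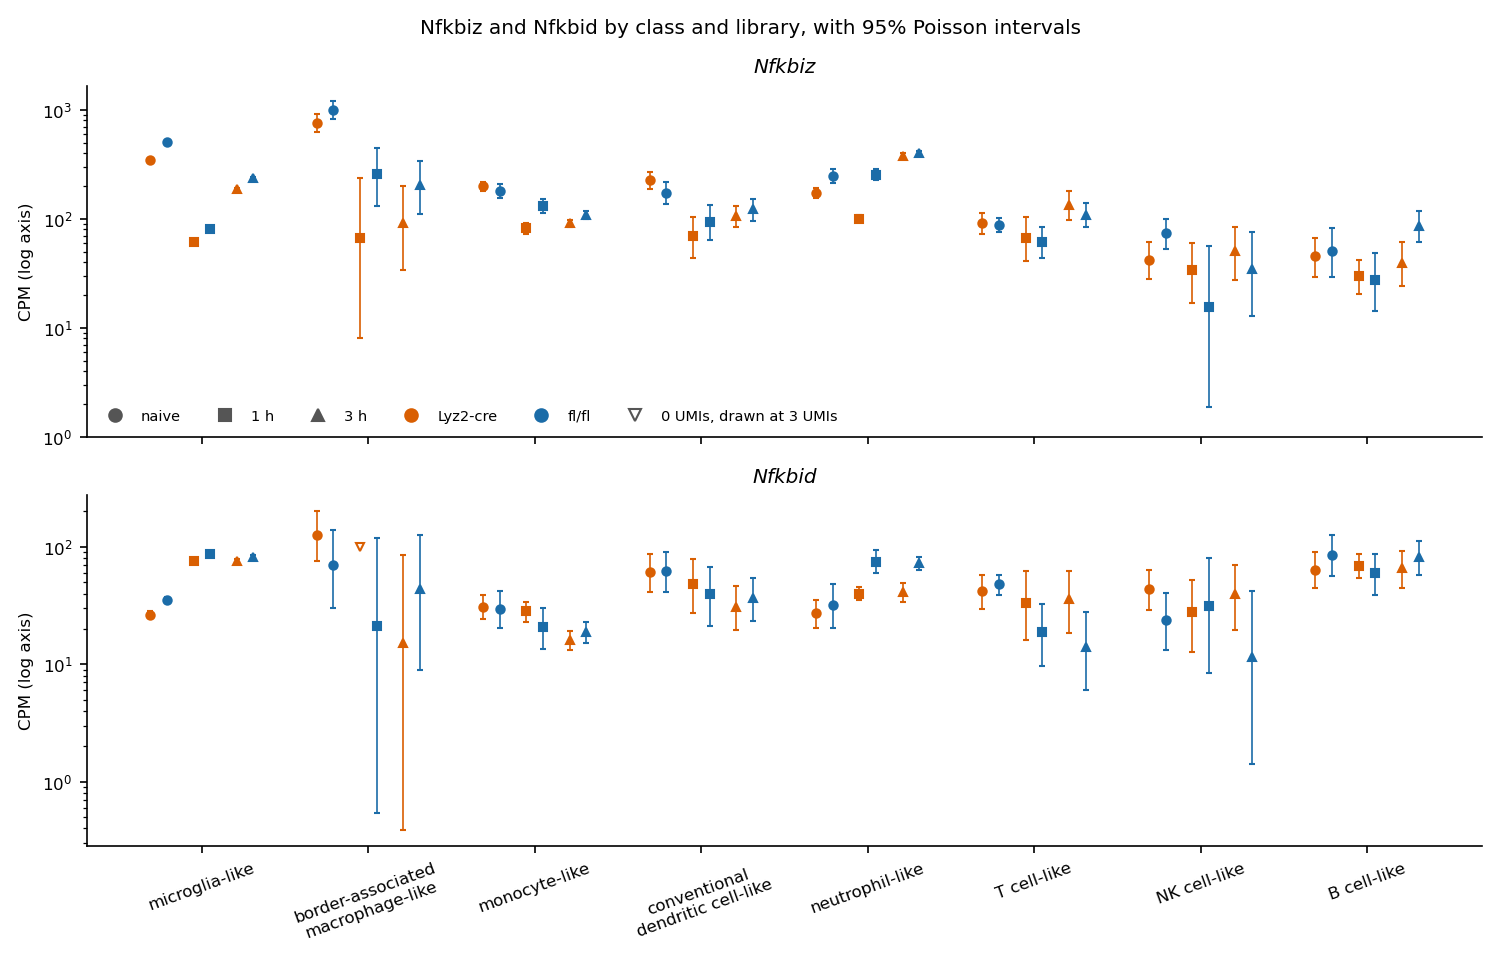
Level of Nfkbiz (top) and Nfkbid (bottom) in 8 classes, 1 point per library (CPM, logarithmic axes), with exact 95% Poisson intervals. Colour gives the genotype and shape the time, and open triangles pointing down stand for 0 UMIs, drawn at the level of 3 UMIs. Nfkbiz of microglia-like cells lies at 61.6 and 80.5 CPM at 1 h, below the naive 349 and 509 CPM, while Nfkbid there lies above its naive level.

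Between genotypes, 1 of the 10 genes was called in microglia-like cells, over a background of 0.405% of genes called (0.0389% higher, 0.366% lower). Nfkbiz was lower in Lyz2-cre than in fl/fl libraries at each of the 3 times, at 349 against 509 CPM, 61.6 against 80.5 CPM and 186 against 236 CPM. The change was -0.48 ± 0.07 (edgeR adjusted p = 0.023). The call was lost without any 1 of the naive or 1 h libraries, and when genotype was fitted without time (the adjusted p over the alternatives ran from 1.8e-05 to 1). The library with the erythroid markers is Lyz2-cre at 1 h, and the immediate early sums were lower in Lyz2-cre than in fl/fl libraries in the naive and 1 h comparisons and nearly equal at 3 h. The part of either in the genotype difference was not tested. All 10 genes had a negative estimate, and 7 had an unadjusted p under 0.05, as did 1336 of 12846 genes. The median estimate of the 10 was -0.28, against 0.004 over all genes. Lower levels in Lyz2-cre were not particular to the 10. Called lower were also 4 of 12 heat shock genes (median -0.60), 4 of 21 immediate early genes (median -0.255) and 3 of 30 NF-kB target genes (median -0.41). The estimate of Tnfaip3 was -0.31 ± 0.06 (adjusted p = 0.10) and that of Nfkbia -0.36 ± 0.08 (adjusted p = 0.16). In monocyte-like cells none was called between genotypes by edgeR, with 1 of them and 518 of 9888 genes at an unadjusted p under 0.05, and a background of 0.0%. In neutrophil-like cells none was called either, with 2 of them and 701 of 8377 genes at an unadjusted p under 0.05 and a background of 0.0358%, and DESeq2 called none in both classes.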

How the data were processed

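Raw counts of UMIs per gene and cell barcode were deposited by the authors, made with Cell Ranger 3.0.2 and build mm10 per the submitters' processing notes. The 10 genes and all gene and marker lists were chosen with earlier results of these data known. Of 51005 barcodes, 50634 passed a minimum of 300 detected genes and a maximum mitochondrial share of 10%. Scrublet's automatic threshold marked 371 barcodes, so the highest scores were removed at a rate of 0.8% per 1000 barcodes, 3531 in all. Cells were clustered with scanpy 1.11.5 (2000 variable genes, 30 components, 15 neighbours, Leiden resolution 1). A class name needed at least 3 of its markers in at least 10% of a cluster's cells, and 0.790% to 3.82% of cells per library stayed unnamed.

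UMIs were summed per library and class and tested with edgeR 4.0.16 (TMM factors, filterByExpr, Benjamini-Hochberg over all genes), with 2 residual degrees of freedom, or 3 for differences between classes. The weight given to the spread of other genes (median prior degrees of freedom) was 6.89 to 10.1 within classes. It was 21.1 for differences from monocyte-like and 92.0 for those from neutrophil-like cells, so the p-values rest largely on other genes' spread. The test code was run on simulated counts with the same dispersion for every gene, which does not show how pools vary. Alternatives were DESeq2 1.42.0, other scalings, no gene filter, 1 model term alone, a stricter cell filter (500 genes, 5% mitochondrial), no doublet removal, microglia-like cells with no UMI of other classes' markers, and leaving out each library. All 10 members were tested in each class. From each list up to 3 called genes with the largest change in each direction could be named, and for likeness the 5 genes with the highest Pearson r of log2(CPM + 1) among genes with a mean of at least 10 CPM. Intervals and floors of 3 UMIs cover counting error only.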

Additional observations from a re-analysis of the deposited data

Results flagged for a closer look

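Time effects that differed between classes by a direct test were set apart for a closer look. Values are differences of log2 fold changes against naive from edgeR. At 1 h the effect in microglia-like minus that in monocyte-like cells was -1.67 for Nfkbiz, 1.68 for Nfkbid and -0.91 for Nfkbia. At 3 h it was 0.59 for Nfkb1, 1.00 for Nfkb2, 1.18 for Rel, 0.96 for Relb, 1.99 for Nfkbid, 1.21 for Tnfaip3 and -1.08 for Nfkbia. Against neutrophil-like cells, it was -2.19 for Nfkbiz at 1 h. At 3 h it was -2.33 for Nfkbiz, -2.03 for Nfkbia, -1.84 for Relb, -1.34 for Nfkb2, -1.12 for Rel, -1.08 for Rela and -0.92 for Nfkb1.

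Among the 3 tested classes, several changes went one way in Lyz2-cre and the other way in fl/fl. In 2 of these cases the interval of each change, which covers counting error only, also excluded no change. Each genotype and time has 1 library, and the difference was not tested. Rela in microglia-like cells changed between 3 h and 1 h by 0.10 in Lyz2-cre and by -0.13 in fl/fl on the log2 scale. Nfkbia in neutrophil-like cells changed at 1 h against naive by -0.65 in Lyz2-cre and by 0.88 in fl/fl.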

How the results depend on the processing

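Of 59 called changes of the 10 genes, 19 kept their call under every alternative run, none reversed, and 625 of 758 alternative values kept the call. In microglia-like cells, 5 genes were called at 3 h against naive with time alone in the model, and between genotypes 5 without the gene filter, 2 with DESeq2 and 0 with genotype alone. In monocyte-like cells, 2 were called at 1 h without the gene filter, and at 3 h against naive 8 without scaling factors (1 higher, 7 lower) and 2 with DESeq2. In neutrophil-like cells, 3 were called without scaling factors at 3 h against naive and 3 against 1 h. Differences from monocyte-like cells at 1 h numbered 6 without the gene filter, and those from neutrophil-like cells at 3 h 2 without scaling factors and 4 with DESeq2.

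Alternatives by cluster were chosen after seeing the data. Cluster 13 alone gave 1 monocyte-like call at 1 h and 2 at 3 h against naive, and cluster 16 alone 2 at 3 h against naive and 1 against 1 h. Without cluster 11, neutrophil-like calls numbered 5 at 3 h against naive and 5 against 1 h. The cause of these shifts was not tested.

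Leaving out 1 library at a time gave 3 to 7 microglia-like calls at 1 h, 4 to 8 at 3 h against naive, 4 to 7 against 1 h and 0 to 5 between genotypes. Monocyte-like calls in the same order numbered 0 to 3, 0 to 6, 0 to 2 and 0 to 0, and neutrophil-like calls 0 to 1, 3 to 10, 2 to 9 and 0 to 3. Differences from monocyte-like cells numbered 1 to 5 at 1 h and 3 to 7 at 3 h, and from neutrophil-like cells 1 to 1 and 2 to 9. Where this left 1 library at a time, that library was assumed to vary like the others.

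Without scaling factors the median change of all genes was -0.12 in microglia-like cells at 1 h, -0.26 and -0.18 in monocyte-like cells at 3 h against naive and 1 h, and -0.43 and -0.33 in neutrophil-like cells. The share of all calls that were higher, without factors and then with them, was 30.7% and 52.6% in microglia-like cells at 1 h, and 20.3% and 9.6% between genotypes. It was 25.9% and 46.9% in monocyte-like cells at 3 h against naive and 29.8% and 48.6% against 1 h, and 35.9% and 60.4%, and 36.0% and 54.0%, in neutrophil-like cells. No paired analysis was possible because each genotype and time has 1 library, so replicate numbers pair nothing, but differences between classes were fitted with the library as a block. Spread between pools was not measured, how far depth limits the calls was not tested, and the smallest class rests on as few as 2 UMIs.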
